A study of Mus musculus with 6 samples.

Results

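The collagen alpha chain genes were described in mouse lung, as every row of the table whose gene symbol has the form Col, a number, a, a number. There were 44 such genes among 57180 rows. They comprised 11 fibrillar genes, 6 basement membrane (type IV) genes, 3 network genes, 9 fibril-associated genes with interrupted triple helices (FACIT), 6 beaded filament (type VI) genes, 1 anchoring fibril gene, 4 transmembrane genes, 2 multiplexin genes and 2 others. Lung RNA was sequenced from 6 samples, 3 labelled wild-type (WT) and 3 labelled as overexpressing FTO, and all 6 came from mice exposed to cigarette smoke. FTO is an enzyme that removes methyl groups from N6-methyladenosine in RNA. How the overexpression was made, its promoter and the cells it reaches, as well as strain, sex, age and the smoke schedule, were not stated in the labels, and no lung without smoke exposure was analysed here. The labels do not say that the libraries came from separate mice, so p-values measure only the spread between these samples, which may be technical.

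Collagens are the main structural proteins of the extracellular matrix, built from alpha chains wound into a triple helix. Fibrillar types I, III and V, made mostly by fibroblasts, give the lung its tensile strength. Type IV collagen forms the sheet of the basement membrane that the alveolar epithelium and the capillary endothelium share, as a common network of alpha 1 and alpha 2 chains and a second network of alpha 3, alpha 4 and alpha 5 chains. Other classes decorate fibrils, link them to cells or span the cell membrane.

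In these libraries, transcripts of the type IV chains were the most abundant collagen transcripts, and no collagen gene passed the test between genotypes. Of 44 collagen genes, 30 passed the filter on low counts and 14 did not. None of the 30 tested was called at an adjusted p of 0.05 in edgeR's quasi-likelihood test, against 16 of 16989 genes over the whole table (0.0942%). Their adjusted p-values ran from 0.163 to 0.998. Most estimates were below 0 all the same. The fitted log2 fold change, FTO-overexpressing over wild-type, was below 0 for 25 of 30 collagen genes (83.3%) and for 48.5% of all genes tested, with medians of -0.18 and 0.01. Leaving out 1 library moved the collagen median to between -0.37 (without wild-type replicate 1) and -0.05 (without wild-type replicate 2), and the count below 0 to between 18 of 30 (without FTO-overexpressing replicate 1) and 31 of 31 (without FTO-overexpressing replicate 2). The chains with the smallest p-values were Col4a3, Col4a4 and Col4a5, the alveolar basement membrane trio, at 0.759, 0.747 and 0.813 times the wild-type level. Summed fibrillar collagen levels differed less between the group means than between libraries of either genotype (SD).

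Promoter windows of 4 collagen genes are shown for 2 pairs of chains. Col4a1 and Col4a2 kept a nearly constant ratio across libraries, and Col1a2 and Col3a1, the most abundant fibrillar chains, were both lowest in wild-type replicate 1 and highest in replicate 2. The constancy was not particular to this pair. The highest ratio was 1.13 times the lowest for Col4a1 to Col4a2, 1.18 for Col6a1 to Col6a2, 1.21 for Col5a1 to Col5a2 and 1.73 for Col8a1 to Col8a2. A link between the windows and the levels was not tested. The windows run from 250 bases before to 50 bases after the annotated start, 5′ to 3′ in the gene's direction (RefSeq, GRCm38.p6). A window was found for 35 of the 44 genes. Col4a1 and Col4a2 lie head to head, on the minus strand at chr8:11312777-11313076 and on the plus strand at chr8:11312555-11312854, with starts 21 bases apart. Capitals mark the 78 bases that the windows share, on opposite strands, of which 73.1% are G or C.
Col4a1: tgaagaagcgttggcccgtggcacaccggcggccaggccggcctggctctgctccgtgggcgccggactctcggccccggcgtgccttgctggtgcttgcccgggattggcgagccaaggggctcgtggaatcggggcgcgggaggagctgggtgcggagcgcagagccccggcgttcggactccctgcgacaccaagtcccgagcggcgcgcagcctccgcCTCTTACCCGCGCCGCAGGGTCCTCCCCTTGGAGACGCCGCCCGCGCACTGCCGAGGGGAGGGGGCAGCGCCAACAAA
Col4a2: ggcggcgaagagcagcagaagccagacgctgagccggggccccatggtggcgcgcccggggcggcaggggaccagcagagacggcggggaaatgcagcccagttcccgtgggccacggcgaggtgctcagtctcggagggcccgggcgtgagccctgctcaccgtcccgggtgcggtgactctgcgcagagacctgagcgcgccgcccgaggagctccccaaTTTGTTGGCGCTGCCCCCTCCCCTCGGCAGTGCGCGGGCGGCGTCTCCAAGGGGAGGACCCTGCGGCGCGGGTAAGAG
The abundant fibrillar genes Col1a2 (chr6:4505368-4505667, plus strand) and Col3a1 (chr1:45311288-45311587, plus strand) lie on different chromosomes. Here capitals mark TATAAA or CCAAT on either strand.
Col1a2: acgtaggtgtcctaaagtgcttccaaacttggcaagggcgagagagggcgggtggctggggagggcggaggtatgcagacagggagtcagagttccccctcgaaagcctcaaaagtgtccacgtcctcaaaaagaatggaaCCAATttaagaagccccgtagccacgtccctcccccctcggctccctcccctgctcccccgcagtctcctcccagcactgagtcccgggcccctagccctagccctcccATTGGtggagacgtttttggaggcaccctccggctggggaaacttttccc
Col3a1: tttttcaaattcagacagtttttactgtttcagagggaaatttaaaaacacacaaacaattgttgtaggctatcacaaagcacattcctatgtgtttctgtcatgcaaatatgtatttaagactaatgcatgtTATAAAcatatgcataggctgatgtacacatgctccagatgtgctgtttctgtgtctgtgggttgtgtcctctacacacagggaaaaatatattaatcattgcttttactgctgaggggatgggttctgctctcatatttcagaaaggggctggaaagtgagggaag

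The Col4a1 window was 74.0% G or C and that of Col3a1 37.7%. Searched on both strands, TATAAA was found for 5 of the 35 collagen genes (14.3%) and in 13.6% of 32851 windows of the same length. CCAAT was found for 13 of these genes (37.1%, against 37.4%) and GGGCGG for 22 (62.9%, against 35.7%). The units differ, since a collagen gene counted with a match in any of its windows and the whole set was counted by window. Col18a1, Col6a2 and Col9a1 had 2 windows each. A match is a description of the letters and not a binding site. Other collagen genes also have a collagen gene as the next coding gene, among them Col3a1 with Col5a2, Col4a3 with Col4a4, Col4a5 with Col4a6 and Col6a1 with Col6a2.

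Fto was checked first as the targeted gene. Its level (ENSMUSG00000055932) in CPM, read counts scaled to library size with TMM factors, was 66.2, 69.9 and 68.6 in wild-type replicates 1, 2 and 3, and 666, 650 and 741 in FTO-overexpressing replicates 1, 2 and 3. The groups did not overlap and the fold change was 10.1 (95% interval 8.66 to 11.7, edgeR adjusted p 1.45e-05), as the labels say. Library totals ran from 16731850 to 21444907 counts and haemoglobin transcripts took 0.368% to 3.27% of them. Transcript levels of some cell type markers differed widely between libraries. The summed level of 15 skeletal and heart muscle markers, for example, ran from 42.1 to 477 CPM in wild-type and from 140 to 996 CPM in FTO-overexpressing libraries. In bulk tissue, fewer cells of a type and less RNA per cell cannot be told apart.

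Collagen transcripts together made up 0.247% to 0.395% of the counts of a library. Their sum was 2537, 4022 and 3717 CPM in wild-type replicates 1, 2 and 3 and 2598, 3296 and 2895 CPM in FTO-overexpressing replicates 1, 2 and 3. The groups overlapped, with means of 3425 ± 784 and 2930 ± 350.1 CPM (SD, n = 3 per group) and a ratio of 0.855. Averaged over libraries, the type IV chains took 50.8% of the summed collagen CPM, the fibrillar chains 24.4%, the type VI chains 13.7%, the FACIT chains 4.14% and the transmembrane chains 3.68%. Col4a1 and Col4a2 alone took 34.7%. Of the 44 genes, 10 had a mean of at least 100 CPM, 24 of at least 10 CPM and 30 of at least 1 CPM.

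Levels of different genes were compared per length, as mean CPM per kilobase of the transcript with the longest coding sequence in GENCODE M21. On this scale Col4a1 (90.1) and Col4a2 (78.7) stood highest, followed by Col3a1 (46.6), Col6a1 (43.9), Col1a2 (43.8) and Col6a2 (34.2). Col4a3 (29.7) and Col1a1 (25.8) came next, then the transmembrane chain Col13a1 (17.5), Col4a5 (14.9) and Col4a4 (13.9). Col1a2 stood above Col1a1 although the type I molecule holds more alpha 1 than alpha 2 chains. That order rested on the length used. Divided by the length of all annotated exons, Col1a2 (18.8) fell below Col1a1 (23.3).

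**Figure D1:**
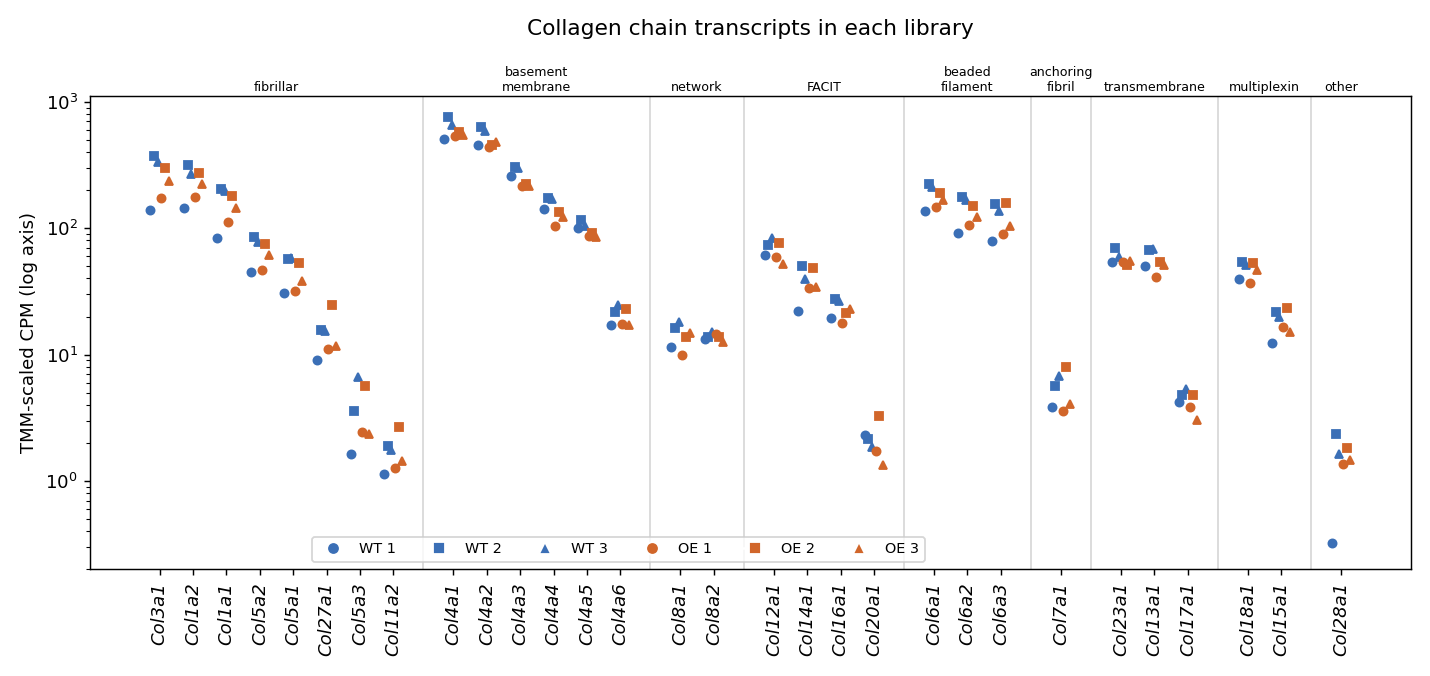
Level of the 30 tested collagen genes in each library, in TMM-scaled CPM on a log axis, by class (WT, wild-type; OE, FTO-overexpressing; circle, square and triangle are replicates 1, 2 and 3). Both circles lie below the other 4 points for 19 of the 30 genes, among them 7 of 8 fibrillar genes.

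The fibrillar genes encode the chains of the tensile fibrils. Col3a1 (ENSMUSG00000026043), the single chain of type III collagen, was at 139, 372 and 336 CPM in wild-type replicates 1, 2 and 3 and at 172, 301 and 235 CPM in FTO-overexpressing replicates 1, 2 and 3. The wild-type group held both its lowest and its highest library. Its log2 fold change was -0.26 ± 0.36 (SE, n = 3 per group, edgeR adjusted p 0.891). Col1a2 (ENSMUSG00000029661), the alpha 2 chain of type I collagen, was at 143, 314 and 270 CPM in wild-type and at 177, 275 and 225 CPM in FTO-overexpressing libraries. Again wild-type replicate 1 was lowest and replicate 2 highest, and the log2 fold change was -0.11 ± 0.28 (edgeR adjusted p 0.956). Its partner Col1a1 (ENSMUSG00000001506) was likewise lowest in wild-type replicate 1 and highest in replicate 2, with 83.6, 203 and 196 CPM in wild-type and 112, 179 and 145 CPM in FTO-overexpressing libraries. The log2 fold change of Col1a1 was -0.15 ± 0.33.

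The minor fibrillar chains were also lowest in wild-type replicate 1, but their highest library varied. It was wild-type replicate 2 for Col5a2, wild-type replicate 3 for Col5a1 and Col5a3, and FTO-overexpressing replicate 2 for Col27a1 and Col11a2. Col5a1 (-0.24), Col5a2 (-0.17) and Col5a3 (-0.19), chains of the type V collagen found inside type I fibrils, were estimated below 0, and Col27a1 (0.25) and Col11a2 (0.16) above 0. Over the 8 tested fibrillar genes the median log2 fold change was -0.16. Wild-type replicate 1 decided much of this value, since the median was -0.43 without it. Leaving out wild-type replicate 2 or 3 gave 0.03 or -0.00176, and leaving out FTO-overexpressing replicate 1 or 2 gave 0.01 or -0.34. The sign of the fibrillar median therefore changed with the library left out.

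Summed over the 11 fibrillar genes, the level was 453, 1052 and 962 CPM in wild-type replicates 1, 2 and 3 and 554, 917 and 721 CPM in FTO-overexpressing replicates 1, 2 and 3. The means were 823 ± 323 and 731 ± 182 CPM (SD, n = 3 per group), a ratio of 0.888. The difference of the means was smaller than the SD of either group.

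**Figure D2:**
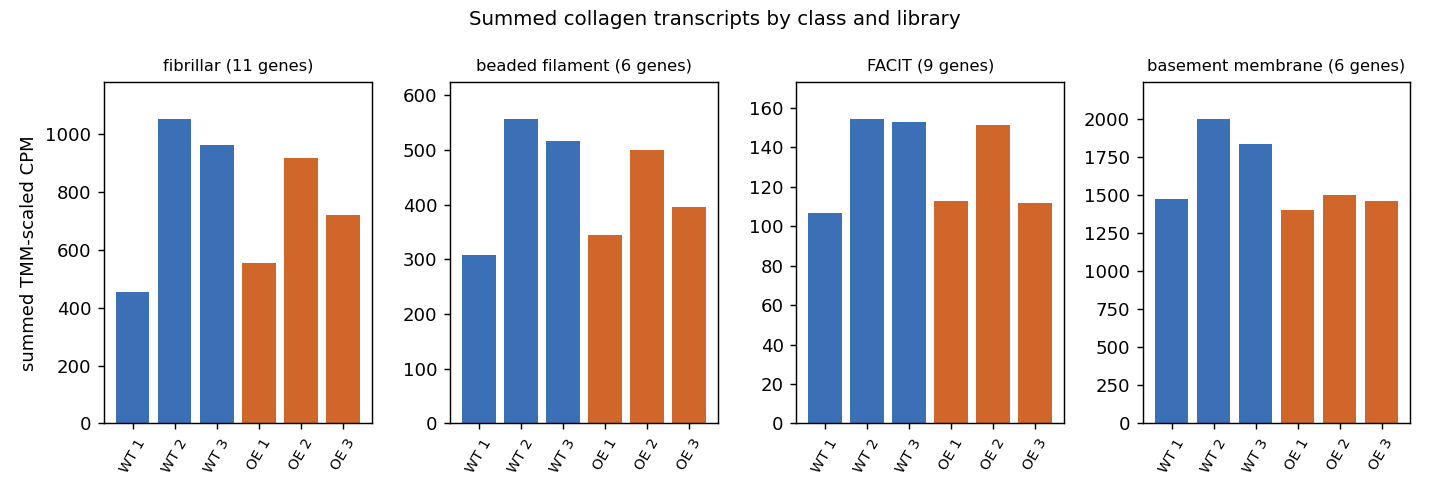
Summed TMM-scaled CPM of fibrillar, beaded filament, FACIT and basement membrane collagen genes in each library (WT, wild-type; OE, FTO-overexpressing; 1 bar per library). The fibrillar sum ran from 453 to 1052 CPM within the wild-type group alone, and the basement membrane sum from 1404 to 1504 CPM over the FTO-overexpressing libraries.

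Replicates 1 were low for many collagen genes, most of all the fibrillar and type VI genes. Wild-type replicate 1 was the lowest library for 16 of 30 tested collagen genes (53.3%), against 17.9% of all genes tested, and wild-type replicate 2 was the highest for 16 (53.3%), against 14.8%. Wild-type replicate 1 was lowest for all 8 tested fibrillar and all 3 tested type VI genes, for 2 of 6 type IV and 1 of 4 FACIT genes, and for none of the 2 network and 3 transmembrane genes. Both replicates 1 lay below the other 4 libraries for 19 collagen genes (63.3%), against 9.36% of all genes tested. The ratio of wild-type replicate 2 to replicate 1 ran from 1.66 to 2.68 over the fibrillar genes, from 1.64 to 1.97 over the type VI genes and from 1.16 to 1.5 over the type IV genes. It was 1.03 to 1.42 over the network genes, 1.13 to 1.34 over the transmembrane genes and 0.924 to 2.25 over the FACIT genes. Its median was 1.49 over the 30 collagen genes and 0.996 over all genes tested. Markers of mesothelium, the cell layer that covers the lung, were also lowest in replicate 1 within the wild-type group when summed. The 9 markers summed to 222, 317 and 288 CPM in wild-type and to 242, 225 and 187 CPM in FTO-overexpressing libraries, and Wt1, a defining marker, was at 0.0542, 1.37 and 1.21 CPM in wild-type and at 0.254, 0 and 0.0461 CPM in FTO-overexpressing libraries. Fibroblast markers (15 genes) summed to 4969, 6301 and 6107 CPM in wild-type and to 4667, 4987 and 4949 CPM in FTO-overexpressing libraries. Their part in the collagen levels was not tested.

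The type IV chains of the common network came closer together. Col4a1 (ENSMUSG00000031502) was at 505, 758 and 653 CPM in wild-type replicates 1, 2 and 3 and at 539, 574 and 546 CPM in FTO-overexpressing replicates 1, 2 and 3. The FTO-overexpressing libraries lay within the wild-type range, and the log2 fold change was -0.21 ± 0.15 (SE, n = 3 per group, edgeR adjusted p 0.754). Col4a2 (ENSMUSG00000031503), its partner in the same molecule, was at 455, 629 and 587 CPM in wild-type and at 439, 458 and 477 CPM in FTO-overexpressing libraries. The groups overlapped through wild-type replicate 1, and the log2 fold change was -0.28 ± 0.13 (edgeR adjusted p 0.561).

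For the 3 chains of the second network, every FTO-overexpressing library lay below every wild-type library. Col4a3 (ENSMUSG00000079465), the alpha 3 chain of this network and the antigen of Goodpasture disease, was at 260, 306 and 299 CPM in wild-type and at 217, 224 and 216 CPM in FTO-overexpressing libraries. The 3 FTO-overexpressing values lay in a narrow range and the lowest wild-type value stood above them. Its log2 fold change was -0.40 ± 0.09 (fold 0.759, 95% interval 0.660 to 0.874, edgeR adjusted p 0.163). Col4a4 (ENSMUSG00000067158) was at 141, 172 and 170 CPM in wild-type and at 105, 134 and 122 CPM in FTO-overexpressing libraries, so that wild-type replicate 1 stood just above FTO-overexpressing replicate 2. Its log2 fold change was -0.42 ± 0.12 (fold 0.747, 95% interval 0.615 to 0.908, edgeR adjusted p 0.278). Col4a5 (ENSMUSG00000031274) was at 101, 117 and 105 CPM in wild-type and at 86.6, 90.9 and 84.8 CPM in FTO-overexpressing libraries. Its log2 fold change was -0.30 ± 0.08 (fold 0.813, 95% interval 0.712 to 0.928, edgeR adjusted p 0.255). Col4a6, a chain of the remaining type IV network, was low in lung at 17.3 to 24.6 CPM, with groups that overlapped and a log2 fold change of -0.14.

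**Figure D3:**
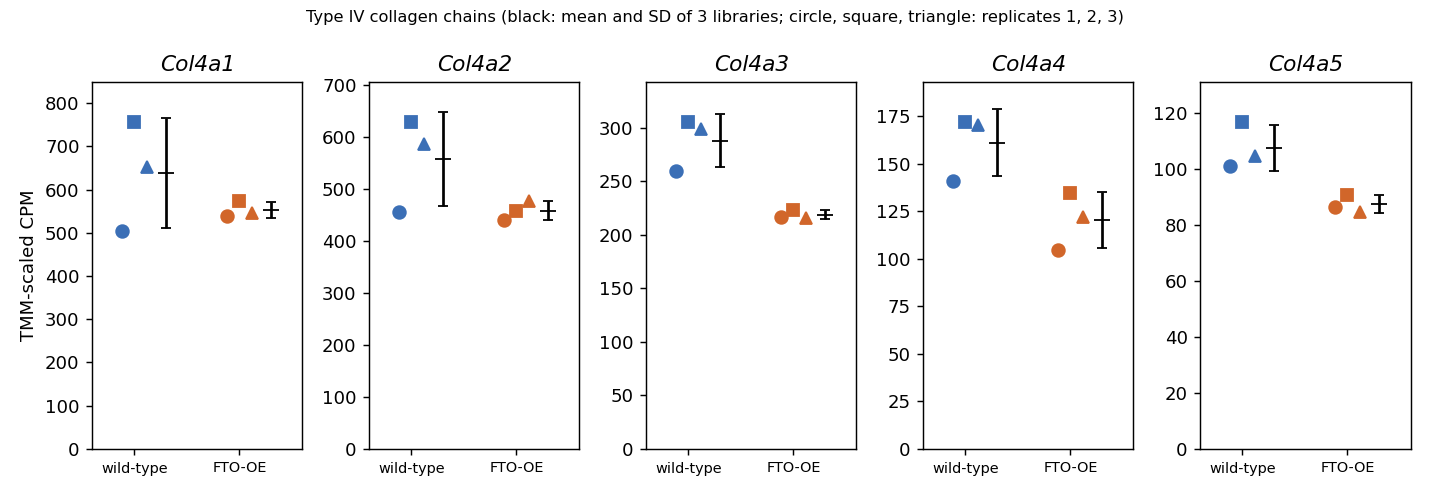
Level of 5 type IV collagen genes in each library, in TMM-scaled CPM on axes that start at 0 (black marks are the mean and SD of 3 libraries). The FTO-overexpressing points lie below all wild-type points for Col4a3, Col4a4 and Col4a5 and overlap them for Col4a1 and Col4a2.

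These counts were read against the whole table. Collagen genes with all FTO-overexpressing below all wild-type libraries numbered 3 of 30 (10%), and the share over all genes tested was 6.9%. None lay above, against 7.94% of all genes. An unadjusted p under 0.05 with a lower estimate was found for 4 collagen genes (13.3%), namely Col4a3, Col4a4, Col4a5 and Col13a1, against 3.67% of all genes, and with a higher estimate for none, against 5.77%. Without wild-type replicate 1, 13 collagen genes had an unadjusted p under 0.05 in either direction, as did 2151 of all 17373 genes tested in that fit (1603 of 16989 with all libraries), and the lowest edgeR adjusted p among collagen genes was 0.0952. DESeq2, which estimates the spread differently, called Col4a3 (adjusted p 0.00246) and Col4a4 (adjusted p 0.045) and called 2.5% of all genes. The call of these 2 genes thus depended on the tool. Under the 15 alternatives that refit the genes, estimates lay between -0.46 and -0.35 for Col4a3 and between -0.51 and -0.33 for Col4a4. For Col4a5 they lay between -0.34 and -0.24. These fits reuse the same libraries, and genes with separate groups can hardly change sign under them. The unchanged sign is therefore no further evidence of a difference.

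The basement membrane class as a whole had a median log2 fold change of -0.29 over its 6 genes, and -0.38 to -0.21 when each library was left out in turn. Its summed level was 1479, 2003 and 1839 CPM in wild-type and 1404, 1504 and 1463 CPM in FTO-overexpressing libraries. The means were 1774 ± 268 and 1457 ± 50.1 CPM (SD, n = 3 per group), a ratio of 0.821. Wild-type replicate 1 lay inside the FTO-overexpressing range. Outside this class, 19 of 24 tested collagen genes were estimated below 0.

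**Figure D4:**
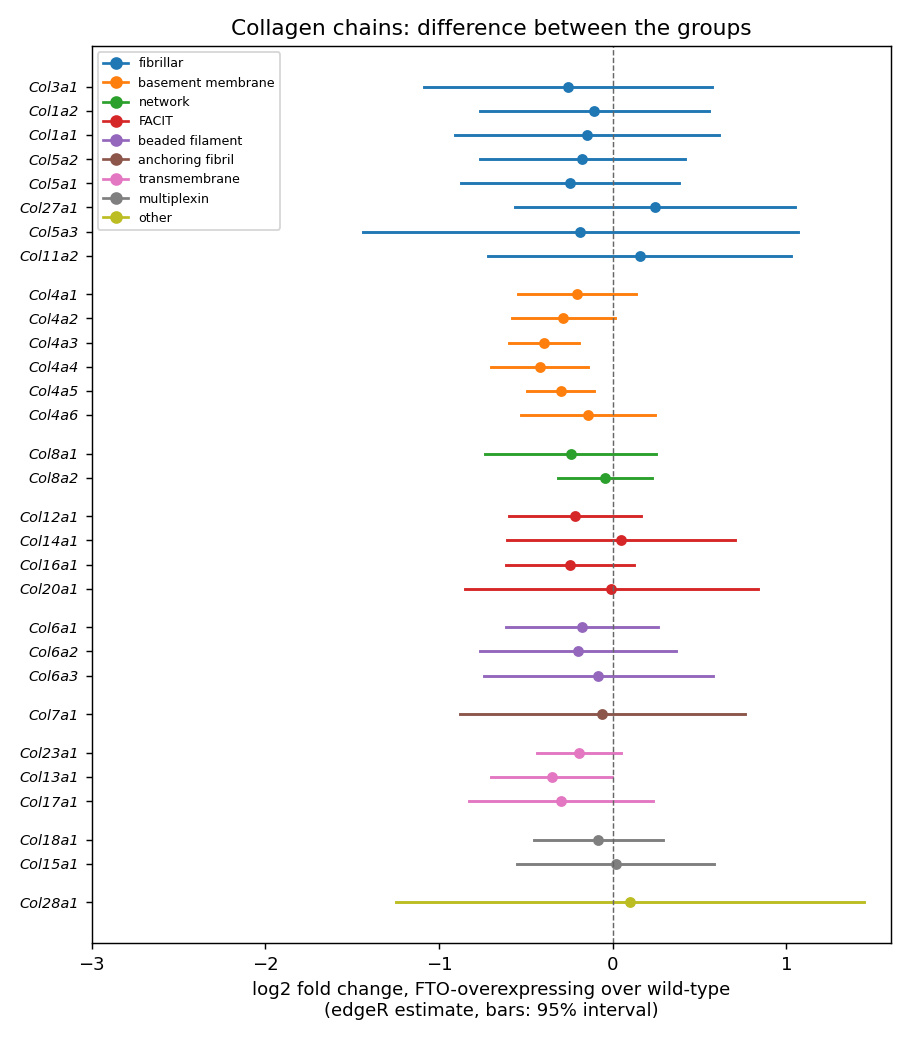
Fitted log2 fold change, FTO-overexpressing over wild-type, of the 30 tested collagen genes with 95% intervals, coloured by class (linear axis of log2 values). All 6 basement membrane estimates lie below 0, and the intervals of Col4a3, Col4a4, Col4a5 and Col13a1 do not reach 0, before adjustment for multiple testing.

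Markers of alveolar epithelial and endothelial cells, which border the alveolar basement membrane, had lower estimates too. Lower estimates were not particular to cells that border a basement membrane. Macrophage markers had a median of -0.21 (9 of 12 below 0), and airway epithelium markers one of 0.15 (8 of 11 above 0). All 12 alveolar type 1 cell markers had a log2 fold change below 0 (median -0.17), and for 6 of them the FTO-overexpressing libraries lay below the wild-type libraries. The same held for 7 of 12 alveolar type 2 and 6 of 15 endothelial markers, and for 6.9% of all genes tested. Type 1 markers summed to 7670, 7892 and 8557 CPM in wild-type and to 7405, 6494 and 6874 CPM in FTO-overexpressing libraries. All 12 alveolar type 2 markers (median -0.26) and all 15 endothelial markers (median -0.19) were also below 0, and none passed edgeR's test. Type 2 markers summed to 26850, 25580 and 23410 CPM in wild-type and to 21620, 20090 and 24220 CPM in FTO-overexpressing libraries. Endothelial markers summed to 6090, 6424 and 6290 CPM in wild-type and to 5927, 5182 and 5363 CPM in FTO-overexpressing libraries. The markers with the smallest p-values were Spock2 (-0.42) and Rtkn2 (-0.41) of type 1 cells, Sftpd (-0.43) and Abca3 (-0.29) of type 2 cells, and Egfl7 (-0.43) and Car4 (-0.35) of endothelium. Their part in the type IV values was not tested.

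Type VI collagen forms beaded filaments between cells and fibrils. Col6a1 was at 137, 224 and 212 CPM in wild-type and at 148, 191 and 168 CPM in FTO-overexpressing libraries, and its log2 fold change was -0.18 ± 0.19 (SE, n = 3 per group, edgeR adjusted p 0.853). Col6a2 was at 91.1, 176 and 166 CPM in wild-type and at 107, 149 and 122 CPM in FTO-overexpressing libraries, with a log2 fold change of -0.20 ± 0.24 (edgeR adjusted p 0.872). Both groups overlapped and wild-type replicate 1 was the lowest library for both genes, as for Col6a3, whose log2 fold change was -0.08 ± 0.28. The median over these 3 genes was -0.18, and it was -0.36, -0.03 and -0.09 with wild-type replicate 1, 2 or 3 left out and -0.09 and -0.34 with FTO-overexpressing replicate 1 or 2 left out. Col6a4, Col6a5 and Col6a6 had at most 14 counts in a library and were not tested.

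FACIT collagens sit on the surface of fibrils. Col12a1 was at 61.3, 73.4 and 83.6 CPM in wild-type and at 59.2, 76.3 and 52.3 CPM in FTO-overexpressing libraries (log2 fold change -0.22 ± 0.16). Col14a1 was at 22.3, 50.2 and 39.9 CPM in wild-type and at 33.4, 48.5 and 34.4 CPM in FTO-overexpressing libraries (log2 fold change 0.05 ± 0.28). The FTO-overexpressing libraries of Col14a1 all lay within the wild-type range. The other 2 tested FACIT genes, Col16a1 (-0.24) and Col20a1 (-0.01), had groups that overlapped, and the median over the 4 genes was -0.11. It was -0.27 and -0.0732 with wild-type replicate 1 or 2 left out, and -0.0179, -0.33 and 0.01 with FTO-overexpressing replicate 1, 2 or 3 left out.

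Among the network collagens, Col8a1 was at 11.4, 16.2 and 18.0 CPM in wild-type and at 10.01, 13.7 and 14.9 CPM in FTO-overexpressing libraries (log2 fold change -0.24 ± 0.21). Col8a2, the other chain of type VIII collagen, was nearly level across libraries, at 13.4, 13.8 and 15.1 CPM in wild-type and 14.6, 13.8 and 12.6 CPM in FTO-overexpressing libraries (log2 fold change -0.04 ± 0.12). Its interval, a fold of 0.805 to 1.17, was among the narrower ones. The highest Col8a2 library was 1.20 times the lowest, against 1.88 to 4.06 times for the fibrillar genes.

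Transmembrane collagens are cell surface proteins. Col13a1 (ENSMUSG00000058806) was at 50.3, 67.4 and 68.3 CPM in wild-type and at 40.9, 54.0 and 51.0 CPM in FTO-overexpressing libraries. The groups overlapped through wild-type replicate 1, and the log2 fold change was -0.35 ± 0.15 (SE, n = 3 per group, edgeR adjusted p 0.528). Col23a1 was at 54.2, 69.9 and 58.9 CPM in wild-type and at 53.7, 51.1 and 55.0 CPM in FTO-overexpressing libraries (log2 fold change -0.20 ± 0.10). Col17a1, the hemidesmosome collagen of basal epithelial cells, was at 3.04 to 5.39 CPM (log2 fold change -0.30 ± 0.23).

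The remaining tested genes gave estimates near 0. Col18a1, the multiplexin that is the source of endostatin, was at 39.6, 53.8 and 51.6 CPM in wild-type and at 37.1, 53.0 and 46.9 CPM in FTO-overexpressing libraries (log2 fold change -0.08 ± 0.16). Its relative Col15a1 had a log2 fold change of 0.02 ± 0.24. Col7a1, the anchoring fibril collagen, was at 3.85, 5.67 and 6.77 CPM in wild-type and at 3.56, 8.02 and 4.10 CPM in FTO-overexpressing libraries (log2 fold change -0.06 ± 0.35). The widest relative spread was that of Col28a1, at 0.325, 2.36 and 1.65 CPM in wild-type and 1.37, 1.82 and 1.48 CPM in FTO-overexpressing libraries, where the highest library was 7.27 times the lowest (log2 fold change 0.10 ± 0.58).

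The 14 collagen genes that were not tested had at most 14 counts in any library. Col9a1 had none in any. Some cartilage and growth plate chains, chosen after their values were seen, had their highest counts in FTO-overexpressing replicate 2, which had 8 counts of Col2a1, 9 of Col9a2 and 9 of Col10a1, against at most 3, 4 and 2 in the other 5 libraries. The cartilage chain Col9a3 did not, with 11, 10 and 6 counts in wild-type and 4.15, 8 and 10 in FTO-overexpressing libraries. Acan, the cartilage proteoglycan, was found in that library alone, at 0.796 CPM. Of the listed cartilage markers, 8 (Acan, Comp, Matn1, Matn3, Cnmd, Snorc, Ucma and Epyc) were at or below that level everywhere, as were Sox9, Hapln1 and Chadl, and 5 of the 8 (Acan, Matn1, Cnmd, Ucma and Epyc) were at 0 in all wild-type libraries. Of the 14 listed cartilage markers, 5 were tested (median log2 fold change 0.00325, with Chad at 0.39 and Hapln1 at -0.43) and none passed. Col24a1, a minor fibrillar chain, had 4, 6 and 8 counts in wild-type and 3, 2 and 2 in FTO-overexpressing libraries, values too low to compare at this depth.

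Chains that build one molecule were compared by the ratio of their levels in each library. On the per-length scale the ratio of Col4a1 to Col4a2 ran from 1.08 to 1.22 over the 6 libraries, although Col4a1 itself ranged from 505 to 758 CPM. Col1a1 to Col1a2 ran from 0.526 to 0.655, Col5a1 to Col5a2 from 0.486 to 0.590, Col6a1 to Col6a2 from 1.23 to 1.45 and Col4a3 to Col4a4 from 1.97 to 2.45. Col8a1 to Col8a2 varied most among the well-measured pairs, from 0.582 to 1.01, a range of 1.73 times. The ratio of Col3a1 to Col1a1, chains of different molecules chosen after the values were seen, ran from 1.64 to 1.95, a range of 1.19 times, against 1.24 times for Col1a1 to Col1a2. The groups overlapped for each of these ratios. The size of a ratio depended on the length used, though its relative spread over libraries did not. Divided by the length of all annotated exons, Col1a1 to Col1a2 ran from 1.11 to 1.37 and Col6a1 to Col6a2 from 2.42 to 2.85. For the 2 remaining planned pairs, Col9a1 was at 0 and Col11a1 had at most 3 counts. Col4a1 over Col4a3, a chain of the common over a chain of the second type IV network, was chosen after the values were seen. This ratio was 2.52, 3.20 and 2.82 in wild-type and 3.21, 3.32 and 3.27 in FTO-overexpressing libraries. Wild-type replicate 2 came within rounding of the lowest FTO-overexpressing value. Other pairs of chains across these networks were not compared, so this pair does not describe the balance of the networks.

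Genes of collagen processing, the surrounding matrix, collagen receptors and TGF-beta signalling were taken from 9 lists with 135 entries, of which 132 were tested. None was called by edgeR. The estimate was below 0 for 107 of the 132 (81.1%, against 48.5% of all genes tested), and 16 (12.1%) had an unadjusted p under 0.05 with a lower estimate, against 3.67% of all genes, and 1 with a higher estimate. All 9 medians were below 0, between -0.21 and -0.08. These counts were not repeated with libraries left out, and genes that vary together by library are not independent. Mean log2 levels, relative to the mean of the libraries, were low in both replicates 1 for several lists. They were -0.324 (wild-type) and -0.211 (FTO-overexpressing) for elastic fibre genes, and -0.229 and -0.255 for basement membrane partners. The receptor, breakdown and TGF-beta lists did not have their lowest levels in both replicates 1.

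Inside the cell, 20 folding and modification genes had a median log2 fold change of -0.15, and 19 of them were below 0. P3h2, a prolyl 3-hydroxylase that acts on type IV collagen, was at 16.2, 16.1 and 18.4 CPM in wild-type and at 12.8, 12.6 and 12.6 CPM in FTO-overexpressing libraries (log2 fold change -0.41 ± 0.11, SE, n = 3 per group, edgeR adjusted p 0.240). Plod2, a lysyl hydroxylase, had a log2 fold change of -0.44 ± 0.13 with groups that overlapped. Of the secretion and propeptide removal genes, 11 were tested (median -0.12). The smallest p-values there belonged to the procollagen N-proteinases Adamts14 (0.51) and Adamts3 (-0.86), both at low levels and of opposite sign.

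Outside the cell, the 7 cross-linking enzymes had a median of -0.21, with Lox, the lysyl oxidase, at 53.3, 77.4 and 111 CPM in wild-type and 43.8, 51.5 and 57.1 CPM in FTO-overexpressing libraries (log2 fold change -0.67 ± 0.25). Pxdn, the peroxidase that cross-links type IV collagen, had a log2 fold change of -0.21 ± 0.09 and groups that did not overlap. Among 16 tested fibril-associated genes (median -0.15), Aspn, a small proteoglycan that binds collagen, was at 39.6, 37.7 and 41.1 CPM in wild-type and at 21.0, 24.6 and 18.1 CPM in FTO-overexpressing libraries. Its log2 fold change of -0.90 ± 0.12 missed the threshold (edgeR adjusted p 0.0702). Ogn, of the same family, had a log2 fold change of -0.30 ± 0.08 (edgeR adjusted p 0.236). Both were narrow within groups and did not overlap between them, unlike the fibrillar chains.

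Of 15 basement membrane partners, 13 were below 0 (median -0.19), with the smallest p-values for the laminin chains Lamc3 (-0.52) and Lama3 (-0.26). Of 13 collagen receptor genes, 11 were below 0 (median -0.12), with the smallest p-values for Adgrg1 (-0.22), an adhesion receptor for type III collagen, and Mrc1 (-0.26). Elastic fibre genes had a median of -0.18 over 11 tested, led by Fbln5 (-0.16) and Mfap2 (-0.21). The 19 genes of collagen breakdown and its inhibitors were closest to the median of all genes, at -0.08. Among them the collagenase Mmp13 had an estimate of 0.98 ± 0.35 at 1.16 to 4.10 CPM, and the collagen-degrading cathepsin Ctsk one of -0.51 ± 0.21.

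TGF-beta signalling, a main inducer of fibrillar collagen genes, was represented by 20 genes with a median of -0.20. Ccn2, a matrix protein that TGF-beta and mechanical strain induce, was at 174, 182 and 170 CPM in wild-type and at 96.5, 120 and 102 CPM in FTO-overexpressing libraries. The groups stood well apart, and the log2 fold change was -0.72 ± 0.10 (edgeR adjusted p 0.0702). Skil, a repressor of SMAD proteins, had a log2 fold change of -0.27 ± 0.07 (edgeR adjusted p 0.252). No gene of the list was called, whether ligand, receptor, SMAD or other.

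Markers of the cells that make collagen gave mixed values. The 15 fibroblast markers had a median log2 fold change of -0.20, with 10 below 0. Gpx3 (-0.48), Pdgfra (-0.54), Limch1 (-0.34) and Inmt (-0.32) had FTO-overexpressing libraries below all wild-type ones. That was 4 of 15, against 6.9% of all genes tested. Thy1 and Pi16, 2 of 15, had them above, against 7.94%. Thy1 (1.84), which T cells also express, had the smallest p-value of the list (edgeR adjusted p 0.0856). The 15 smooth muscle and pericyte markers had a median of -0.05, led by Postn (-0.25) and Trpc6 (-0.29), and the 8 tested mesothelial markers one of -0.80, led by Upk3b (-1.70) and Upk1b (-0.38).

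Of the other cell types, all 15 T and cytotoxic cell markers had every FTO-overexpressing library above every wild-type library, against 7.94% of all genes tested. Of these, edgeR called 6 (adjusted p from 0.0179 to 0.0363), namely Ccl5, Klrg1, Klrk1, Lck, Cd8a and Cd8b1, against 0.0942% of all genes. The list summed to 176, 133 and 120 CPM in wild-type and to 540, 738 and 1176 CPM in FTO-overexpressing libraries. Macrophage markers had a median of -0.21 over 12 genes, airway epithelium markers one of 0.15 over 11 and muscle markers one of 1.6 over 11, and none of these passed. The smallest p-values were those of Mertk (-0.43) and C1qc (0.29) for macrophages, Muc5b (2.39) and Scgb3a2 (0.50) for airway epithelium and Acta1 (6.17) and Nppa (4.17) for muscle. The Acta1 and Nppa estimates each rested on a single library. Acta1 was at 0.661, 0.512 and 19.4 CPM and Nppa at 1.52, 78.2 and 4.33 CPM in FTO-overexpressing replicates 1, 2 and 3. Over the tested muscle markers, the mean log2 level relative to all libraries was -0.441, 1.38 and 1.27 in these replicates. In wild-type replicates 1, 2 and 3 it was -0.792, -1.73 and 0.31. Bone and skin markers were under 1 CPM in every library for 9 of 10 genes, and the other one, Krt10, had a log2 fold change of -0.13. The part of these cell types in the collagen values was not tested.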

How the data were processed

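Lung RNA of 6 smoke-exposed mouse samples in 2 groups of 3 was analysed. RNA came from TRIzol extraction and a stranded poly(A) library kit, per the labels' protocols. Tools listed in the submitters' processing notes are fastp, HISAT2 and StringTie, without versions. Genome build, annotation and strand setting were not given in the sources used here. Reads of overlapping or antisense genes may therefore be mixed. The authors deposited expected counts per gene, which are estimated and not scaled to library size (9.66% to 10.3% of values per library were not whole). Rows with no symbol (525) took 0.119% to 0.143% of counts.

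Counts were rounded and tested in R 4.3.3 with edgeR 4.0.16 (filterByExpr, TMM scaling, quasi-likelihood F-test, group as the only term, two-sided). Benjamini-Hochberg adjustment ran over all 16989 genes tested, at a threshold of 0.05. Each SE and 95% interval was computed from the fitted log2 value together with its F statistic. Levels are TMM-scaled CPM. No library was a duplicate of another (chi-square over degrees of freedom 27.7 to 48.6 within groups). Per-length levels used GENCODE M21 transcripts, and promoter windows came from RefSeq, with neither used for the counts. The test was checked on simulated counts.

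The collagen genes, their classes and the 9 pathway and 12 cell type lists were chosen with earlier results of these data known. Values in every library are given for the 2 most abundant tested genes of a class (1 in classes of 1 or 2), for those with an unadjusted p under 0.05 and for those with separate groups and a log2 fold change of at least 0.5. From each list, the members past the threshold or the 2 with the smallest p are named. Col1a1 was given in every library outside this rule, as the partner of Col1a2. Others were chosen after their values were seen (untested genes, Wt1 and fibroblast markers beyond the first pair). Alternatives were RLE, upper-quartile and total-count scaling, a stricter count filter (mean 50) or none, a replicate block, leaving out haemoglobin, immunoglobulin and mitochondrial genes, limma-voom (limma 3.58.1), DESeq2 1.42.0, each library left out, and thresholds of 0.01 and 0.1.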

Additional observations from a re-analysis of the deposited data

How the results depend on the processing

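The count of called collagen genes was 0 in the edgeR test and 2 with DESeq2, and 0 under the other 16 alternatives, including the fit with no filter, which tested 43 collagen genes. The count over all genes, 16, was 424 with DESeq2, 287 with no filter, 31 without haemoglobin, immunoglobulin and mitochondrial genes, 5 with limma-voom, 70 at a threshold of 0.1 and 1 at 0.01. It ran from 1 to 49 when each library was left out in turn, since FTO-overexpressing replicate 1 gave 49 and wild-type replicates 2 and 3 and FTO-overexpressing replicate 2 gave 1 each. The number of collagen genes estimated below 0 went from 18 of 30 without FTO-overexpressing replicate 1 to 31 of 31 without FTO-overexpressing replicate 2, and their median log2 fold change was -0.37 without wild-type replicate 1, -0.31 without FTO-overexpressing replicate 2, -0.09 without wild-type replicate 3, -0.0841 without FTO-overexpressing replicate 1 and -0.05 without wild-type replicate 2. The cause was not tested.

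Among the collagen genes that the naming rule picked, 6 estimates turned sign, each only when a library was left out, with ranges of -0.37 to 0.13 for Col1a2, -0.0928 to 0.0105 for Col8a2, -0.22 to 0.32 for Col14a1, -0.50 to 0.15 for Col7a1, -0.20 to 0.0453 for Col18a1 and -0.37 to 0.65 for Col28a1. Scaling moved the median of all genes to 0.04 at most (column totals only).

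Over all genes tested, deviations of same-numbered samples had correlations of 0.13, -0.334 and -0.353 for numbers 1, 2 and 3, so the numbers were not used as pairs. The collagen genes differed from this for number 1. Both replicates 1 lay below the other 4 libraries for 19 of the 30 tested. With the replicate block, 2 genes of the whole table and 0 collagen genes were called, and the adjusted p of Col4a3 was 0.329. Counts of at most 14 per library, as in the 14 untested genes, were too few to compare.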
